A study of Mus musculus with 6 samples.

Results

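DNA polymerase epsilon is the enzyme that copies the leading strand at replication forks. Its 4 subunits are encoded by Pole, Pole2, Pole3 and Pole4. Pole is the catalytic subunit, which also holds the proofreading exonuclease. Pole2 is the B subunit, which joins the polymerase to the replicative helicase. Pole3 and Pole4 are small histone-fold subunits that pair with each other, and Pole3 is also a subunit of the CHRAC chromatin remodelling complex. CpG methylation is low at the starts of most active genes and high within most gene bodies. Tet2 oxidises 5-methylcytosine, a step towards its removal. Germinal centre B cells divide rapidly and so depend on the replication machinery.

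Methylation was read by enhanced reduced representation bisulfite sequencing (ERRBS), which sequences fragments cut at the MspI site CCGG, so that CpG-rich DNA is read deeply and other DNA in patches. Bisulfite does not separate 5-methylcytosine from 5-hydroxymethylcytosine, so each level given counts them together. The 6 libraries were made from germinal centre B cells of C57BL/6 mouse spleens, 3 with the genotype TET2 Knock-Out (Tet2 KO) and 3 with TET2 Wild-Type (Tet2 WT). The labels name no allele or Cre line, age or immunisation, and do not say whether a library is 1 mouse or a pool.

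The 4 genes were examined at every CpG position, counted per strand, that had at least 10 reads in all 6 libraries and lay in the annotated gene or within 5 kb of it. This gave 392 positions of 1463044 in all, from 508 around these genes with a value in any library. Pole2 held 183 positions, Pole 102, Pole3 58 and Pole4 49. Within the gene spans the numbers were 60 for Pole2, 29 for Pole, 42 for Pole4 and 0 for Pole3. The set was chosen because an earlier look at these libraries showed higher methylation in Pole2 in Tet2 KO cells. The Pole2 difference is therefore a description, and where the model called its positions, tiles or gene body the calls are given as such and support nothing. The question here is whether it spans the gene or lies in a stretch of it. Libraries held 180397494 to 195582108 reads at listed positions in Tet2 KO cells and 174375503 to 203863392 in Tet2 WT cells. As a check of the labels, 6 positions in Tet2 (chromosome 3, 133486189 to 133486297) were listed in all 3 Tet2 WT libraries, with 32 to 168 reads, and in none of the Tet2 KO libraries. Of 6 B-cell marker genes, 5 had a 1 kb tile at or under 3.97% in Tet2 KO cells and 3.01% in Tet2 WT cells, and Ms4a1 had 74.4% in Tet2 KO cells and 65.8% in Tet2 WT cells. The T-cell markers Cd3d and Cd4 also had tiles at 0.399% and 0.602% in Tet2 KO cells and 1.27% and 0.644% in Tet2 WT cells. Of the other 3 T-cell markers with a tile, Thy1 had 7.22% in Tet2 KO cells and 8.21% in Tet2 WT cells. Cd3g had 77.2% in Tet2 KO cells and 77.5% in Tet2 WT cells, and Cd8a had 83.7% in Tet2 KO cells and 84.0% in Tet2 WT cells. Low tiles were thus found at most B-cell markers and at some T-cell markers.

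The starts of the subunit genes carried almost no methylation in either genotype. Promoters of 3 of the 4 genes were matched in RefSeq (GRCm38.p6), each from 250 bases before to 50 bases after the annotated start. The promoters of Pole2 (12:69228141-69228440) and Pole4 (6:82652825-82653124), both on the minus strand, are printed because they hold the most covered CpGs. Capitals mark the CpGs covered in all 6 libraries.
Pole2: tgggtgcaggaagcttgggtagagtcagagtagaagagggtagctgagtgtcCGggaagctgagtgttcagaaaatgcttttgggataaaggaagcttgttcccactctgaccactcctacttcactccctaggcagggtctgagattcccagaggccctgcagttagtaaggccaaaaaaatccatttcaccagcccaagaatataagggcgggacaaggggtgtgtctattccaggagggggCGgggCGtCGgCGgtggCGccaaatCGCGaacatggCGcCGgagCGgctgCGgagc
Pole4: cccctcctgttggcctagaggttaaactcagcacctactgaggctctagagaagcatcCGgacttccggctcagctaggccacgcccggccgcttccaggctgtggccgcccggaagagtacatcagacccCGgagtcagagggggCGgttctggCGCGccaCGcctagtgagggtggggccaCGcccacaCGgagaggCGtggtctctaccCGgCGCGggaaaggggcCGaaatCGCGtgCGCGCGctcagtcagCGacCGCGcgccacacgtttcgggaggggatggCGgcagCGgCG
The Pole2 promoter held 13 CpGs, more than 62.1% of 32851 promoters, and 12 of them were covered. Its methylation was 0.866%, 0.259% and 1.38% in Tet2 KO cells, against 0.501%, 0.513% and 0.251% in Tet2 WT cells, so the groups overlapped. The Pole4 promoter held 33 CpGs, of which 24 were covered, with 0.0523% ± 0.0720 in Tet2 KO cells and 0.182% ± 0.239 in Tet2 WT cells (SD, n = 3 each). The Pole3 promoter held 17 CpGs, of which 2 were covered, and its mean level was 0.101% in Tet2 KO cells and 0% in Tet2 WT cells. The highest of these promoter levels in any library was 1.38%. CCGG, the MspI site, occurs in 52.8% of promoters and 2 times in that of Pole2.

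An E2F-type motif, spelled TTTGGCGC and searched on both strands, occurred once in the Pole2 promoter, starting 10 bases after the annotated gene start. It is found in 0.514% of the promoters. E2F factors are regulators of genes for DNA synthesis, and a match to their motif is only a match of letters. The CpG in this match had 0 methylated of 97 reads over the Tet2 KO libraries and 0 of 73 over the Tet2 WT libraries, which allows up to 3.09% in Tet2 KO cells and 4.11% in Tet2 WT cells. These limits, and all intervals below, cover counting error only, since copies made by PCR were not told apart.

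The higher Pole2 methylation of Tet2 KO cells lay in 2 clusters of CpGs inside the gene, and the covered positions outside them showed no difference of that size. Pole2 occupies chromosome 12 from 69201773 to 69228205 on the minus strand, a span of 26433 bases, and distances into the gene are counted from the start in the promoter table, 69228190. Its 183 positions form 6 clusters when a gap of more than 1 kb separates clusters, a rule chosen after the values were seen. Read from the start of the gene inwards, these are the gene start, a methylated cluster, 2 partly methylated clusters, a single methylated position, and a dense cluster beyond the far end. Exons and introns were not analysed here.

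**Figure D1:**
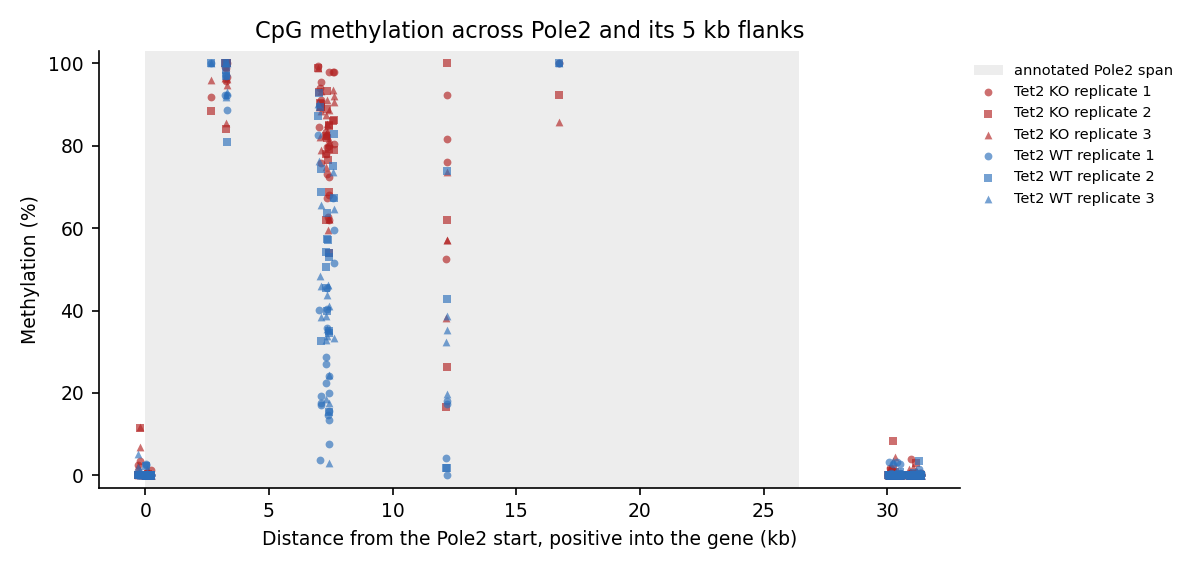
Methylation (%) of each covered CpG position in each of the 6 libraries against distance in kb from the Pole2 start, positive into the gene, with the annotated span in grey and its 5 kb flanks outside it. Positions at the gene start and beyond the far end lie near 0% in both genotypes, and the libraries part in 2 narrow clusters at 6.99 to 7.63 kb and 12.1 to 12.2 kb.

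The larger of the 2 clusters runs from 69220558 to 69221204, a length of 647 bases that starts 6986 bases inside the gene and holds 21 positions in 18 CpGs. Its methylation was 78.8%, 83.6% and 82.8% in Tet2 KO cells, against 32.5%, 57.4% and 45.9% in Tet2 WT cells. All 3 Tet2 KO libraries lay above all 3 Tet2 WT libraries, and Tet2 WT replicate 1 was the lowest of the 6. The means were 81.7% ± 2.53 in Tet2 KO cells and 45.3% ± 12.4 in Tet2 WT cells (SD, n = 3 each), 36.4 points apart, on 2059 to 2549 reads a library in Tet2 KO cells and 1643 to 2484 in Tet2 WT cells. The Tet2 KO libraries were the closer to each other here. For a rough scale, 11101 tested tiles had a mean of 50% to 75% over both genotypes. Their median SD was 4.20 points in Tet2 KO cells and 5.95 points in Tet2 WT cells. The cluster's mean in each genotype lies outside that range, and the SD of a percentage depends on its level. In bulk DNA, a larger share of cells with methylated copies and a higher methylation of each cell's copies cannot be told apart.

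At 21 of the 21 positions of this cluster the Tet2 KO mean was above the Tet2 WT mean, and at 19 the libraries did not overlap. Over all 525213 tested positions, 58.9% had the higher mean in Tet2 KO cells and 8.3% had all Tet2 KO libraries above all Tet2 WT libraries. Calls required an adjusted p under 0.05 (moderated quasi-binomial model, Benjamini-Hochberg over all tested positions) and means at least 10 points apart. By that rule 11 of the 21 were called higher and 0 lower, against 0.284% and 0.0105% of all tested positions, shares from which nothing is read because the gene was chosen on this contrast. The differences between the means ran from 12.4 to 59.1 points with a median of 41.5.

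The widest gap was at 69220775, with 72.3%, 68.8% and 62.3% in Tet2 KO cells against 7.62%, 15.4% and 3.03% in Tet2 WT cells, on 47 to 53 reads in Tet2 KO cells and 33 to 105 in Tet2 WT cells. The libraries of the 2 genotypes did not overlap there. The narrowest gap was at 69221204, the edge nearest the gene start, where the means were 99.0% ± 0.286 in Tet2 KO cells and 86.6% ± 3.82 in Tet2 WT cells (SD, n = 3 each). The lowest Tet2 WT mean of the cluster was at 69220775 and the highest at 69221204. In Tet2 KO cells the position means ran from 59.4% to 99.0%, and in Tet2 WT cells from 8.68% to 86.6%.

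The 2 positions with overlapping libraries were 69221179 and 69221109, both near the edge towards the gene start. At 69221109 the levels were 93.8%, 90.3% and 82.0% in Tet2 KO cells, against 3.85%, 89.4% and 48.5% in Tet2 WT cells. The Tet2 WT libraries spread there across the level of Tet2 KO replicate 3. Tet2 WT replicate 1 was the lowest of the Tet2 WT libraries at 69221109 and 69221179, and Tet2 WT replicate 2 the highest.

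**Figure D2:**
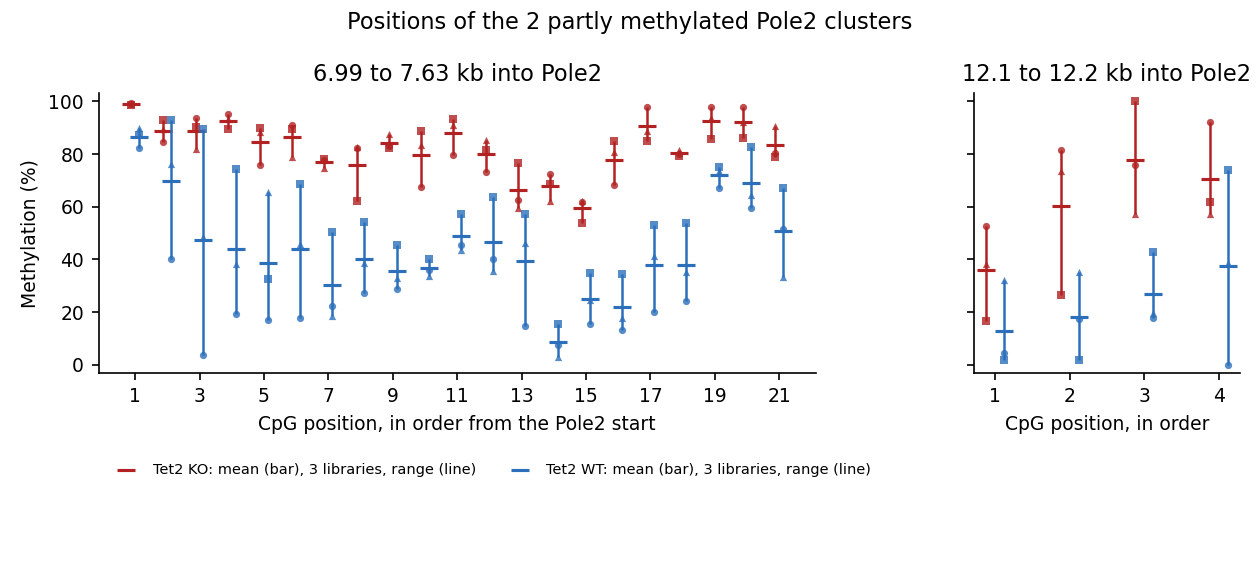
Methylation (%) at each position of the 2 partly methylated Pole2 clusters, in order from the gene start, with a bar for the mean, a line for the range and a point for each of 3 libraries (circle, square and triangle for replicates 1, 2 and 3). Tet2 KO means lie above Tet2 WT means at all 21 positions of the left panel and all 4 of the right panel, and the Tet2 WT libraries spread widely at several of them.

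The smaller cluster lies 4514 bases further into the gene, at 69215988 to 69216043, and holds 4 positions in 3 CpGs. Its methylation was 72.0%, 53.2% and 56.3% in Tet2 KO cells, against 10%, 26.7% and 31.7% in Tet2 WT cells. The groups did not overlap when reads were added over the cluster, and the means of 60.5% ± 10.1 in Tet2 KO cells and 22.8% ± 11.4 in Tet2 WT cells (SD, n = 3 each) were 37.7 points apart. It was read thinly, with 79 to 164 reads a library in Tet2 KO cells and 170 to 243 in Tet2 WT cells. Single positions overlapped at 3 of the 4, and 0 of the 4 were called. The only position without overlap was 69215997, with 76.0%, 100% and 57.1% in Tet2 KO cells against 17.9%, 42.9% and 19.6% in Tet2 WT cells.

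Of the CpGs in these clusters, 4 were read on both strands, and the difference was positive on both strands of each. At the pair 69220774 and 69220775 it was 34.4 points on the forward strand and 59.1 on the reverse. The strands of 1 library could disagree where reads were few: in Tet2 KO replicate 2 the forward strand at 69215997 had 100% methylation and the reverse strand 26.3%, on 19 to 21 reads.

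Outside the 2 clusters the cluster means of Pole2 lay within 10 points of each other in the 2 genotypes. The gene-start cluster, 69227972 to 69228488, has 32 positions, 28 of them in the span, and also lies in Klhdc1, which is annotated from 69227729. It had 0.440% ± 0.306 in Tet2 KO cells and 0.366% ± 0.270 in Tet2 WT cells (SD, n = 3 each). The cluster at 69224889 to 69225541, 2649 to 3301 bases into the gene, had 97.8%, 94.9% and 94.5% in Tet2 KO cells, against 93.6%, 96.3% and 95.6% in Tet2 WT cells. The groups overlapped at this methylated cluster, which lies between the unmethylated gene start and the partly methylated clusters.

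On the other side, the single position 69211460 had 100%, 92.3% and 85.7% in Tet2 KO cells and 100% in each Tet2 WT library, on 10 to 22 reads. It had 10 reads in Tet2 WT replicate 2 and was 1 of 5 positions around the 4 genes at the coverage minimum in a library. The 119 positions beyond the far end of the gene, all in Dnaaf2 and 74 of them also in the lncRNA gene 9330151L19Rik, had 0.122% ± 0.0133 in Tet2 KO cells and 0.0859% ± 0.0800 in Tet2 WT cells (SD, n = 3 each).

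The 2 partly methylated clusters thus held 25 of the 60 positions in the gene, within 5217 bases or 19.7% of its length. Over the whole span the level was 40.1%, 40.8% and 41.9% in Tet2 KO cells, against 23.2%, 23.6% and 26.0% in Tet2 WT cells, a difference of 16.7 points. The libraries of each genotype lay close together by this measure. Pole2 was the 1 gene body called higher among 11849 tested (0.00844%, with 0.00844% also called lower), and nothing is read from that call. The call was lost when any 1 of Tet2 KO replicates 1, 2 and 3 or Tet2 WT replicates 1 and 2 was left out, with differences of 16.1 to 17.1 points. The call was kept without Tet2 WT replicate 3, at 17.6 points. With the 2 clusters left out, the other 35 positions had 15.3% ± 3.10 in Tet2 KO cells and 14.2% ± 3.67 in Tet2 WT cells (SD, n = 3 each). With each of those positions given equal weight the levels were 19.1% in Tet2 KO cells and 19.3% in Tet2 WT cells.

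The level of the whole span is a mixture, because its gene-start positions took 50.2% to 51.9% of its reads in Tet2 KO cells and 49.6% to 62.9% in Tet2 WT cells. The share was highest in Tet2 WT replicate 2, the library with the highest Tet2 WT level in the larger cluster. Without the 1 kb at each end of the gene, 32 positions gave 84.0% ± 0.708 in Tet2 KO cells and 54.0% ± 8.83 in Tet2 WT cells (SD, n = 3 each), 29.96 points apart. That setting was added after the values were seen.

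The edges of the differing stretch are not resolved by these reads. Between the 2 clusters, and between each and its neighbours, lie 4514, 4527 and 3684 bases without a position covered in all 6 libraries. Some positions in the span were listed in part of the libraries only, and they did not all point one way. At 69213477, further from the gene start than the smaller cluster, Tet2 KO replicate 1 had 7 methylated of 16 reads (43.8%, 95% Wilson interval 23.1 to 66.8%) and Tet2 WT replicate 2 had 0 of 17 (upper bound 18.4%). At 69213486 the counts were 5 of 16 (31.3%, 14.2 to 55.6%) and 0 of 17 in the same libraries. Further in, at 69211671, the levels were 81.8%, 89.7% and 87.5% in Tet2 KO cells and 100% in Tet2 WT replicate 1, on 11 to 29 reads. Inside the larger cluster, 69220844 and 69220850 were listed only in Tet2 WT replicate 2, with 16 of 16 reads methylated at each. Beside the methylated positions nearer the gene start, 69224950 had 0 of 20 in the same library. No such position was listed in all 3 libraries of both genotypes, and no difference is drawn from them.

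In 1 kb tiles with at least 3 positions, 20 tiles were covered around the 4 genes and 6 were in the tested range of 5% to 95% mean methylation. Of these, 2 were called higher and 0 lower, against 0.685% and 0.00241% of 83114 tiles, and both were in Pole2, where the choice of the gene used this contrast. The tile from 69220001, with 15 positions, had 74.6%, 80.2% and 79.8% in Tet2 KO cells, against 32.0%, 52.5% and 35.1% in Tet2 WT cells. The tile from 69221001, with 6 positions, had 90.9% ± 1.46 in Tet2 KO cells and 57.4% ± 19.5 in Tet2 WT cells (SD, n = 3 each). Both tiles cut the larger cluster, so they are not separate stretches. The call on the second was lost without Tet2 KO replicate 1, 2 or 3, with differences of 34.1, 32.7 and 33.7 points. Its difference was 22.3 points without Tet2 WT replicate 1, against 33.5 with all libraries. The tile from 69215001, with 3 positions, had 71.0% ± 10.3 in Tet2 KO cells and 26.7% ± 12.9 in Tet2 WT cells (SD, n = 3 each), 44.3 points apart, and was not called. Tet2 KO libraries lay wholly above Tet2 WT libraries in all 3 Pole2 tiles, as they did in 12.7% of all tested tiles. No tile of another subunit was called.

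**Figure D3:**
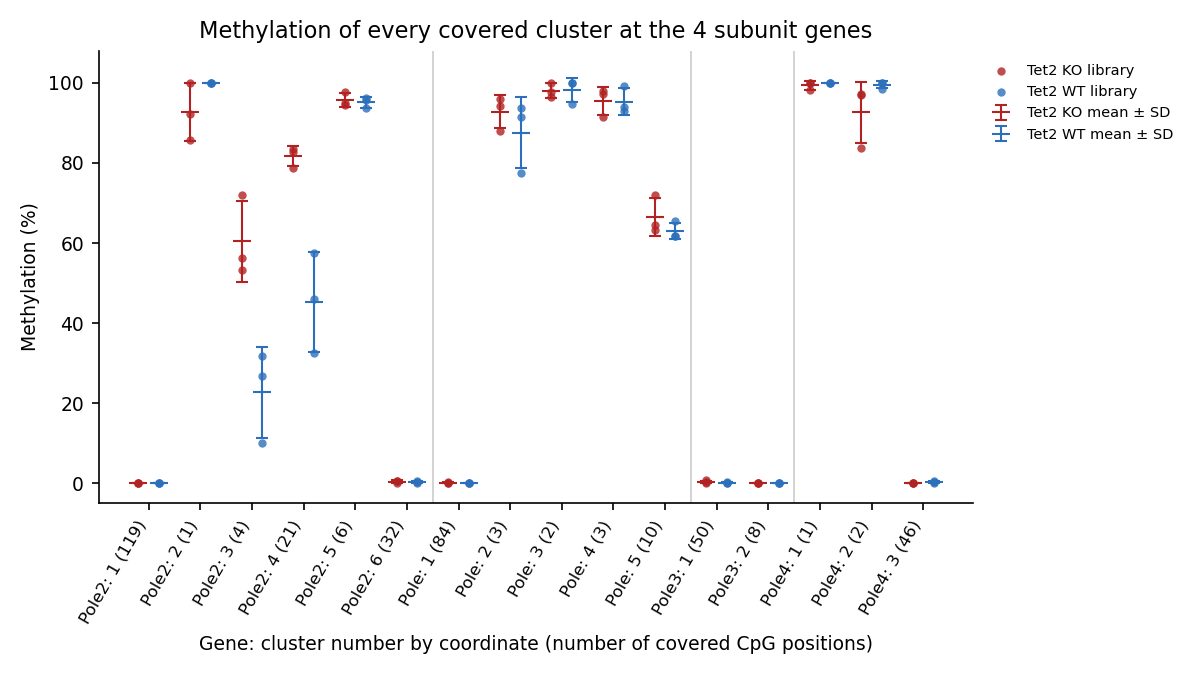
Methylation (%) of every cluster of covered positions at the 4 genes, numbered by coordinate within each gene with the number of positions in brackets, with points for libraries and bars for the mean ± SD of 3 Tet2 KO and 3 Tet2 WT libraries. Pole2 clusters 3 and 4 are the ones whose means differ by over 30 points, and in the other clusters the means differ by under 10 points.

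Coverage was compared as the mean coverage of a gene's positions relative to the mean of its library. It played no part in naming the genes, but the positions were kept for having at least 10 reads in all 6 libraries. Positions that fell below this in any library are thus missing from the comparison. Over the 183 Pole2 positions it was 1.26, 1.28 and 1.18 in Tet2 KO cells, against 1.33, 1.48 and 1.31 in Tet2 WT cells, a ratio of 0.902. All 3 Tet2 KO libraries lay below the Tet2 WT libraries (exact two-sided permutation p = 0.1, the smallest p that 3 against 3 libraries can give, and 0.771 after Benjamini-Hochberg adjustment over 27 overlapping coverage comparisons). With medians in place of means the ratio was 0.945 and the exact p was 0.5. In the larger partly methylated cluster the ratio was 1.03, from 0.967 ± 0.146 in Tet2 KO cells and 0.938 ± 0.165 in Tet2 WT cells (SD, n = 3 each; exact permutation p = 0.8), and with medians it was 0.789 (exact permutation p = 0.3), the other direction. In the smaller one it was 0.531, from 0.241 ± 0.0840 in Tet2 KO cells and 0.453 ± 0.0485 in Tet2 WT cells (SD, n = 3 each; exact permutation p = 0.1). In the smaller cluster, Tet2 KO cells thus had the lower coverage and the higher methylation. Within each genotype, by contrast, libraries with more coverage there had the higher methylation. Its relative coverage was 0.336, 0.177 and 0.210 in Tet2 KO cells, against 0.398, 0.475 and 0.488 in Tet2 WT cells. The part of coverage in the methylation difference was not tested.

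Pole, the catalytic subunit gene, lies on chromosome 5 from 110286319 to 110337468 and showed no such stretch at the positions covered. Its level over the gene was 7.11%, 8.30% and 10.8% in Tet2 KO cells, against 10.5%, 10.5% and 5.17% in Tet2 WT cells. The groups overlapped, with means 0.00885 points apart (quasi-binomial model, adjusted p = 0.966). Most of the positions around it were the 84 at its lower-coordinate end, 24 of them in Pole and 39 in the neighbouring gene Pxmp2, at 0.169% ± 0.0769 in Tet2 KO cells and 0.131% ± 0.0161 in Tet2 WT cells (SD, n = 3 each). Inside the gene, 5 further positions were covered. The 3 from 110297750 to 110297935 had 88.1%, 94.3% and 96.0% in Tet2 KO cells, against 93.7%, 91.5% and 77.5% in Tet2 WT cells. The 2 from 110323758 had 98.1% ± 1.82 in Tet2 KO cells and 98.2% ± 3.10 in Tet2 WT cells (SD, n = 3 each). The pseudogene Gm26277 lies inside Pole and held 0 covered positions. With 5 methylated positions over a gene of 51150 bases, a stretch like that of Pole2 could have gone unread.

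Beyond the other end of Pole, in P2rx2, which encodes an ATP-gated ion channel, 10 positions had an intermediate level. They had 72.0%, 64.5% and 63.3% in Tet2 KO cells, against 61.7%, 65.4% and 61.9% in Tet2 WT cells. The groups overlapped, and the position differences ran from -2.05 to 14.2 points. A further 3 positions near the end of Pole had 95.5% ± 3.53 in Tet2 KO cells and 95.3% ± 3.39 in Tet2 WT cells (SD, n = 3 each). Neither of the 2 tested tiles around Pole was called (quasi-binomial model, adjusted p 0.702 and 0.659), and in the one in P2rx2 32 of the 42 positions lie beyond the 5 kb window. Over the tested positions around Pole the lowest adjusted p was 0.724.

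Pole3, on chromosome 4 from 62523798 to 62525014, had no covered position in its short span. The 8 positions just before its start, 3 of them in 4933430I17Rik, had 0, 1 and 1 methylated reads in the Tet2 KO libraries, a mean of 0.0541%, and 0 of 1122, 1184 and 911 reads in the Tet2 WT libraries. Beyond its far end, 50 positions, 47 of them in Alad, which encodes an enzyme of haem synthesis, had 0.404% ± 0.294 in Tet2 KO cells and 0.150% ± 0.0840 in Tet2 WT cells (SD, n = 3 each). The single tested tile there has 4 positions, of which 3 lie in the 5 kb window with Tet2 KO means of 3.41%, 0.906% and 0.606% and 1 lies beyond it. With that position included the tile had 13.9% ± 4.92 in Tet2 KO cells and 13.3% ± 5.88 in Tet2 WT cells (SD, n = 3 each; adjusted p = 0.980 in the quasi-binomial model).

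Pole4, on chromosome 6 from 82616532 to 82653043, was nearly unmethylated at its start and highly methylated at the 3 other positions covered. The 46 positions from 82652737 to 82653171 had 0.0889% ± 0.0943 in Tet2 KO cells and 0.322% ± 0.288 in Tet2 WT cells (SD, n = 3 each). The position 82623109 had 99.4% in Tet2 KO cells and 100% in Tet2 WT cells. The 2 positions from 82624716 to 82624745 had 83.7%, 97.2% and 96.9% in Tet2 KO cells, against 98.5%, 100% and 100% in Tet2 WT cells, on 30 to 71 reads. Over these 2 positions together every Tet2 KO library was below every Tet2 WT library, the opposite direction to Pole2, with a difference between the means of -6.92 points. At 82624745 the Tet2 KO libraries also lay wholly below the Tet2 WT libraries, as at 4% of all tested positions, and it was not called (quasi-binomial model, adjusted p = 0.869). The other position, 82624716, overlapped and was above the tested range. The whole gene, at 2.28% ± 0.508 in Tet2 KO cells and 2.01% ± 0.517 in Tet2 WT cells (SD, n = 3 each), was under the tested range.

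Other replication genes were read from a list of 43 that holds the other replicative polymerases, the helicase, clamp loader and firing factors, together with Chrac1, Baz1a and Smarca5, which encode chromatin remodelling partners of Pole3. The replication list had 96 tested tiles at 29 genes, of which 0 were called higher and 0 lower by the quasi-binomial model. Over all tested tiles the shares were 0.685% and 0.00241%, so 0 calls among 96 tiles is no result about these genes. An unadjusted p under 0.05 in that model was found in 17 of the 96, against 9561 of all 83114 (11.5%). With limma on both lists the count was 0 of 102 tiles, with 15 at an unadjusted p under 0.05. Over all 83114 tested tiles limma also called 0, with 7810 at an unadjusted p under 0.05. The 0 calls of limma in the lists are therefore no separate result. The Tet2 KO mean was the higher in 78 of the 96 tiles (81.2%), against 64% of all 83114 tiles, with a median difference of 2.45 points, against 1.28 over all tiles. For the Pole3 partners, 6 tiles at 2 genes gave 0 calls, from which nothing is read either, and a median difference of 5.39 points.

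The widest difference in either list, chosen after its values were seen, was at Rpa1, a subunit of the single-strand DNA binding protein RPA. A tile there had 68.8% ± 0.793 in Tet2 KO cells and 52.3% ± 5.78 in Tet2 WT cells (SD, n = 3 each), 16.5 points apart, and was not called (quasi-binomial model, adjusted p = 0.0620). All 3 tested Pole2 tiles lay further from equal levels than any of these 102 tiles, whose differences ran from -5.70 to 16.5 points. Nothing is read from that, because Pole2 was chosen on this contrast and the lists were not. Among all 83114 tested tiles, ordered from the largest rise in Tet2 KO cells, the Pole2 tiles ranked 11, 33 and 73.

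**Figure D4:**
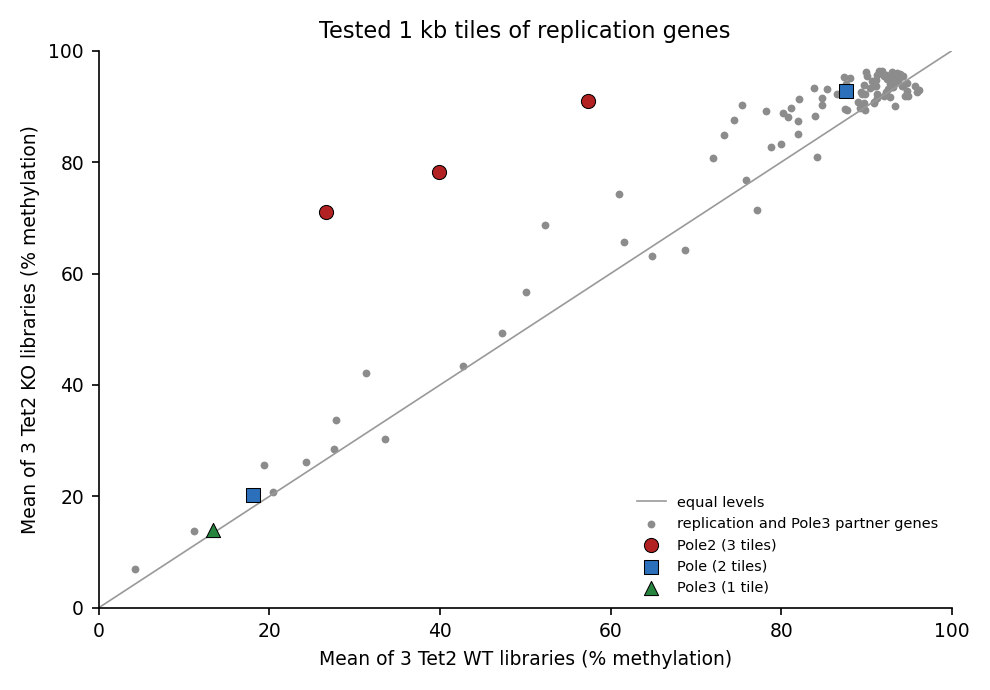
Mean methylation (%) of 3 Tet2 KO libraries (vertical axis) against that of 3 Tet2 WT libraries (horizontal axis) for each tested 1 kb tile of the polymerase epsilon genes and of the replication and Pole3 partner genes, with a line of equal levels. The 3 Pole2 tiles, 33.5 to 44.3 points above the line, stand apart from the grey tiles and from those of Pole and Pole3, and Pole2 was chosen on this contrast.

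The gene bodies with the levels most like Pole2 over the 6 libraries were AA467197, Pik3r2, Aoc1, Cpsf4 and Ehd2. Their mean absolute distance from the Pole2 level was 1.89, 1.96, 3.0, 3.08 and 3.28 points. AA467197 had 41.0% ± 1.93 in Tet2 KO cells and 26.7% ± 1.27 in Tet2 WT cells, and Pik3r2, a regulatory subunit gene of phosphoinositide 3-kinase, had 37.7% ± 2.41 in Tet2 KO cells and 24.4% ± 2.19 in Tet2 WT cells (SD, n = 3 each). None of the 5 was called, with adjusted p from 0.0786 to 0.297 in the quasi-binomial model, and their likeness to Pole2 was the criterion by which they were named.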

How the data were processed

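Per the submitters' processing notes, alignment used Bismark and the GRCm38 build. The labels give no version or filter. The deposited files list each CpG position and strand with its coverage, a count of reads, and with C and T as a percent of them. Coverage and percent gave the methylated counts. Reads were added over 1 kb tiles (at least 3 positions) and gene spans (at least 5). They were tested with a quasi-binomial logistic model with dispersion moderated by limma's method (Python 3.11.15, checked on simulated data). The simulated tiles shared a constant dispersion, so the check does not cover dispersion that differs between tiles or genotypes. Tested features had a mean of 5% to 95%. Benjamini-Hochberg adjustment ran over all of them, and calls needed an adjusted p under 0.05 and 10 points. Group values are unweighted means of 3 libraries. Gene spans and promoters came from RefSeq (GRCm38.p6), whose promoters put all 218469 covered positions inside them on a CG. No label says that replicates are separate mice, so the tests use a spread that may be technical. The genes, lists, clusters and tests were chosen with earlier results of these data known. The naming rule took the 4 subunits, replication genes with a called tile (there were 0), genes overlapping the flanks and the 5 gene bodies nearest Pole2, and Rpa1 was named after its values were seen. Tiles were fitted whole, positions beyond the 5 kb window included. Among 3 myeloid markers with a tile the lowest tile was at 89.1% to 90.8% in Tet2 KO cells and 73.8% to 88.3% in Tet2 WT cells. The erythroid marker Klf1 had 0.118% in Tet2 KO cells and 0.0496% in Tet2 WT cells.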

Additional observations from a re-analysis of the deposited data

How the results depend on the processing

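The Pole2 difference was positive in the gene span and its 3 tested tiles wherever an alternative gave them a value, while calls varied. Over the gene span it was not called with positions weighted equally (15.8 points), with limma on log2 ratios (16.7) or with a replicate block (16.7), and leaving out 1 library gave 16.1 to 17.6 points. The tile from 69220001 lost its call with equal weighting and limma and kept it with each library left out, and that from 69221001 lost it with equal weighting, with limma and without each Tet2 KO library in turn. Pole turned to -1.03 points without Tet2 KO replicate 3 and -1.77 without Tet2 WT replicate 3, within -1.77 to 0.909 points with 1 library left out, and Pole4 to -0.569 with equal weighting. Counts of called tiles were 571 in the reported fit, 0 with equal weighting, 0 with limma and 919 with the replicate block, and 124 to 1164 with 1 library left out. Called positions numbered 1544, then 0 with no filter on mean methylation, with limma and with the block, and 545 to 3667 with 1 library left out. Called gene bodies numbered 2, then 4 with equal weighting, 0 with limma, 1 without positions of highest coverage, 0 with the block, 6 without 1 kb at each end (added after seeing the data) and 0 to 1 with 1 library left out. Same-numbered libraries correlated at 0.0229, 0.00220 and 0.00371, and differently numbered ones at -0.0203 to 0.0150. Tet2 KO replicates 1 and 3 correlated best with their own number and replicate 2 did not. Values this small show no pairing by number and cannot exclude one. With the block, 1 of the 102 tiles of the replication and partner lists was called, against 919 of all 83114 tested tiles. The cause of these changes was not tested. Pole3 had no covered position in its span and so no gene value. The gaps between clusters limit what can be said of the rest of Pole2.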
